A study of Mus musculus with 4 samples.

Results

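The genes described here are 39 chaperones and stress regulators of the mouse, chosen by symbol from the 32283 genes counted in single nuclei of the spinal dorsal horn. Of these 39 genes, 17 encode cytosolic heat shock proteins and their cofactors, 3 encode chaperones of the mitochondrial matrix, 14 encode chaperones and folding enzymes of the endoplasmic reticulum (ER), and 5 encode regulators of these responses. Chaperones bind unfolded protein chains and help them to fold or to be broken down. In the cytosol, heat or misfolded protein frees heat shock factor (Hsf1), which then raises transcription of genes that carry heat shock elements in their promoters. In the ER, unfolded protein draws the chaperone BiP (Hspa5) away from sensors in the membrane, and the factors Atf6, Xbp1 and Atf4 then raise transcription of ER chaperones, folding enzymes and parts of the degradation machinery, a programme called the unfolded protein response.

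The study compared wild-type (Gpr37l1+/+) mice with mice lacking Gpr37l1 (Gpr37l1-/-), an orphan G protein-coupled receptor of astrocytes, either naive or 1 day after SNI (spared nerve injury), in which branches of the sciatic nerve are cut to model neuropathic pain. Each of the 4 groups is a single library of nuclei from microdissected dorsal horn, so there is no spread between animals, no test was possible, and every interval given here covers counting error only. The number of animals behind each library, their age and sex, and how the knockout allele was made are not stated in the labels used here. Groups follow the sample titles. The treatment field goes against the title of 2 libraries: the knockout library titled naive carries an injury entry there, and the wild-type library titled SNI carries a naive entry, so each direction of injury given here rests on the titles. The RNA of the knockout SNI library is described as total RNA and that of the other 3 libraries as polyA RNA. Sets of 4 values always run from the wild-type naive to the knockout naive library, then from the wild type after SNI to the knockout after SNI.

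The libraries held 19942 to 37552 barcodes and 35197290 to 69572640 UMIs (unique molecular identifiers, each standing for 1 captured RNA molecule), and 19096 to 33244 nuclei per library were kept. Nuclei were clustered without the chaperone genes and named from marker genes as astrocyte-like, oligodendrocyte-like, excitatory and inhibitory neuron-like, microglia-like and oligodendrocyte precursor-like. These 6 are the named classes below. Committed oligodendrocyte precursor-like nuclei (168 to 202 per library) and ependymal-like nuclei (48 to 138) were also named but are not described here, and the other 7101 to 15956 nuclei per library stayed unnamed. Astrocyte-like nuclei numbered 961 to 1867 per library and oligodendrocyte-like nuclei 4012 to 6071. The targeted gene followed the genotype labels: astrocyte-like nuclei held 132 Gpr37l1 UMIs in the wild-type naive library and 205 in the wild-type SNI library, against 0 and 2 in the knockout naive and knockout SNI libraries.

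Some features of the libraries cut across the groups and bear on the values below. An unnamed cluster whose leading genes include Actb, Pvalb and Aldoc held 4779 nuclei of the knockout naive library and 4887 of the wild-type SNI library, but 71 of the wild-type naive and 177 of the knockout SNI library. These are the same 2 libraries whose treatment field goes against the title. Most oligodendrocyte-like nuclei of the knockout naive library (4950) lay in a cluster that held 42 to 172 nuclei of each other library, whereas 2706 to 3067 nuclei of each other library and 253 of the knockout naive library lay in another cluster, and the last of the 3 clusters held 868 to 1542 nuclei of every library. Neuronal transcripts in nuclei that should lack them were highest in the knockout naive library: a list of 5 neuron markers summed to 1626, 4584, 2259 and 2354 CPM (UMIs per 1000000 UMIs of the class) in oligodendrocyte-like nuclei and to 1463, 4121, 2042 and 2260.4 in astrocyte-like nuclei. Of the 5 markers, 4 were higher in the knockout than in the wild-type naive library in oligodendrocyte-like nuclei and 5 in astrocyte-like nuclei, and 0 were at 0. The mitochondrial share of UMIs in oligodendrocyte-like nuclei was 0.993%, 0.725%, 1.07% and 0.704%, and their haemoglobin transcripts summed to 385, 12.5, 82.8 and 334 CPM in the same order of libraries. Between 162 and 293 barcodes were shared by each pair of libraries.

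Promoter sequences show which of these genes carry the elements through which heat shock factor and the unfolded protein response act. RefSeq windows from 250 bases before to 50 bases after the transcription start (GRCm38.p6) were matched for 31 of the 39 genes and searched on both strands, and Hsp90aa1, Hsp90ab1, Hspa8, Hspa9, Hsf1, Atf6, Hyou1 and Hspa13 had no window and were not searched. The ER stress element, which is CCAAT and CCACG with 9 bases of any kind between them, lay in the windows of 6 of 12 ER chaperones with a window, namely Hsp90b1, Hspa5, Dnajc3, Calr, Canx and Pdia6, in 0 of the 19 other members with a window, and in 0.137% of all 27025 genes. A shorter element, ATTGG and CCACG with 1 base between them, which shares the CCACG of the ER stress element, lay in the windows of Dnajb11 and Herpud1 and in 0.0444% of all genes. A heat shock element of 3 units, GAA, TTC and GAA with 2 bases between each, lay in the windows of Hsph1, Dnajb6, Hspd1 and Hspe1 and in 0.662% of all genes, and its shorter form of 2 units, GAANNTTC, in the windows of 8 members, adding Hspa1a, Hspa1b, Dnaja1 and Bag3, and in 9.04% of all genes. The letters TGACGTG, the core of the unfolded protein response element, were found in the Hspa5 window, in no other member's window and in 2.22% of all genes. A match describes the letters of the window and says nothing of binding.

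The 6 windows printed here belong to the genes on which the results below turn: 3 ER genes (Hspa5, Canx, Herpud1), a mitochondrial chaperone (Hspe1), a cytosolic cochaperone (Hsph1) and the classical heat-inducible gene (Hspa1a). Each runs 5′ to 3′ along the strand of its gene, with the fixed bases of the motifs in capitals. Hspa5 lies at chr2:34771840-34772139 on the plus strand, Canx at chr11:50325624-50325923 on the minus strand, Herpud1 at chr8:94386179-94386478 on the plus strand, Hspe1 at chr1:55087898-55088197 on the plus strand, Hsph1 at chr5:149636287-149636586 on the minus strand and Hspa1a at chr17:34972107-34972406 on the minus strand. The capitals mark, in order of their position, the core TGACGTG at -157 and the ER stress element at -65 from the start in Hspa5, the ER stress element at -145 in Canx, the shorter element at -52 in Herpud1, the overlapping heat shock elements from -89 in Hspe1, the heat shock element in the first transcribed bases of Hsph1 and a pair of heat shock units at -104 in Hspa1a. Hspe1 and Hspd1 lie on opposite strands and overlap at their 5′ ends, so the Hspe1 window lies within the annotated Hspd1 gene, and how reads in the overlap were assigned is not given in the sources used here.
Hspa5: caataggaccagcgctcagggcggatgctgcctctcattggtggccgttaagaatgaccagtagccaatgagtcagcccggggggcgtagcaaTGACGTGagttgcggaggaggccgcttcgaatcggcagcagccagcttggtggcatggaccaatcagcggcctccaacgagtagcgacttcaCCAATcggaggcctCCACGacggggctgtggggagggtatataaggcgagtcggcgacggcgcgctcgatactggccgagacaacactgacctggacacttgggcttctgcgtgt
Canx: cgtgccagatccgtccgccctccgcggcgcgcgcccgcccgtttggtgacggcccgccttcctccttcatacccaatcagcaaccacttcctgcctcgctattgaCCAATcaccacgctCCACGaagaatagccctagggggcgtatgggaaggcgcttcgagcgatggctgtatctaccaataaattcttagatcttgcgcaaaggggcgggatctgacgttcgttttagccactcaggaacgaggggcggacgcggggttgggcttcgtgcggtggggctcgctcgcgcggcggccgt
Herpud1: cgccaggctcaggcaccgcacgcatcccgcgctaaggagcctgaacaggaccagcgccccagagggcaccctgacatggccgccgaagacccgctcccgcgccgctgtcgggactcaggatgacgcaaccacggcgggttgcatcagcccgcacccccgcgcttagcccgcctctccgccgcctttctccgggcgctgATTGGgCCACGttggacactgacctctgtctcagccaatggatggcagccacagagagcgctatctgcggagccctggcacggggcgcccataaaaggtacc
Hspe1: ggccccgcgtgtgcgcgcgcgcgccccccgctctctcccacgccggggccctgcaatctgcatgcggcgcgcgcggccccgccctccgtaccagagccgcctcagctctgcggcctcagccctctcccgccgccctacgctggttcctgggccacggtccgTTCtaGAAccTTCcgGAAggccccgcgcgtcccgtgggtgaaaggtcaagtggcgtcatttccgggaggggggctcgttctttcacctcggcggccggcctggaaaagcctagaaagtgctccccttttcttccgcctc
Hsph1: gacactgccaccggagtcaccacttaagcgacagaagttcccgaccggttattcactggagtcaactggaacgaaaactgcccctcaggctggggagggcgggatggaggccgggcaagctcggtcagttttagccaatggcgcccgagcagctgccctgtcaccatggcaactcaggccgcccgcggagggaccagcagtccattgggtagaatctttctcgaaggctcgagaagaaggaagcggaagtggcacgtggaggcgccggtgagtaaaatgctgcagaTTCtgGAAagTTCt
Hspa1a: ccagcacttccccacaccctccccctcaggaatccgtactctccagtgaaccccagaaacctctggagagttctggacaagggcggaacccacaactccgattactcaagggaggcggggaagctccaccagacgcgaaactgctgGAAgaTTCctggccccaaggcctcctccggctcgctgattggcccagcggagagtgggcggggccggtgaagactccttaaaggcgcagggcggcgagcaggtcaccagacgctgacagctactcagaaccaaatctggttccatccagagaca

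Levels are given in CPM: the summed UMIs of a gene over the nuclei of a class in a library, per 1000000 UMIs of that class and library without mitochondrial genes. Differences between 2 libraries are given as log2 ratios with 95% intervals, for genes with at least 50 UMIs over both libraries, and a gene is counted as past the fold when it differs by at least 1.5-fold in either direction. These are levels per RNA molecule captured from nuclei and hold nuclear and adhering cytoplasmic RNA together. The sum of 14 abundant cytoplasmic transcripts was higher in both injured libraries: astrocyte-like nuclei held 4042, 3844, 5787 and 5346 CPM of them, and oligodendrocyte-like nuclei 4265, 4078, 6269.9 and 5439. Over all named classes all 14 of these transcripts were higher after SNI in the wild type (median log2 ratio 0.60) and 12 of 14 in the knockout (0.43). Their part in the injury ratios of the chaperones was not tested.

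Across cell classes, the main cytosolic chaperones (Hsp90aa1, Hsp90ab1 and Hspa8) were highest in oligodendrocyte-like nuclei and lowest in inhibitory neuron-like nuclei of every library. This order is not particular to chaperones. Actb, an abundant cytoplasmic transcript, had medians of 439, 235 and 197 CPM in oligodendrocyte-like, excitatory and inhibitory neuron-like nuclei. Most of the abundant cytoplasmic transcripts were likewise highest in oligodendrocyte-like nuclei by median, but Aldoc, Ldhb and Ckb were highest in astrocyte-like nuclei. The level of 15 of 36 members with enough UMIs was higher in oligodendrocyte-like than in excitatory neuron-like nuclei without overlap between the ranges over the 4 libraries, against 29.7% of all genes, and that of 11 of 36 was higher in astrocyte-like nuclei in the same way, against 23.7% of all genes. The opposite order without overlap was found for Hspa12a and Hsf1 in both comparisons, as 2 members for excitatory neuron-like over oligodendrocyte-like nuclei, against 26.1% of all genes, and 2 members over astrocyte-like nuclei, against 22.4% of all genes. The genes above excitatory neuron-like nuclei in both glial classes were Hsp90aa1, Hsp90ab1, Hspa8, Bag3, Hspd1, Dnajb9, Dnajc3, Pdia4 and Ddit3. Atf6, a membrane-bound transcription factor cut free during ER stress, stood at 122, 105, 141 and 125 CPM in microglia-like nuclei. Atf6 and Hspa14, an HSP70 that works at the ribosome, were the members whose range in microglia-like nuclei lay above every value in the 5 other named classes. The share of all genes with such a range in microglia-like nuclei was not counted.

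**Figure D1:**
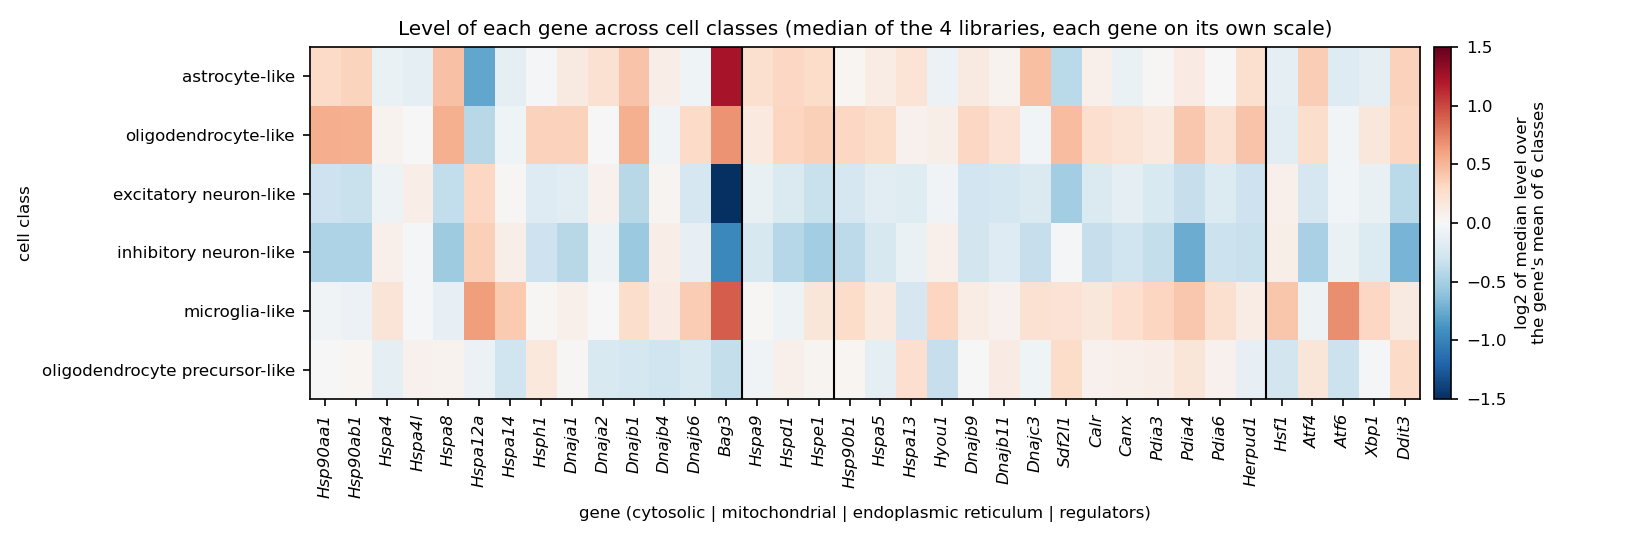
Level of the chaperone and regulator genes in the 6 named cell classes, without Hspa1a, Hspa1b and Hspa2, which are not drawn. Rows are classes, columns are genes in the order cytosolic, mitochondrial, ER and regulators, and colour gives the log2 of the median level over the 4 libraries against the gene's own mean over classes. Hsp90aa1 and Hsp90ab1 are above their mean in oligodendrocyte-like nuclei (median 547 and 519.5 CPM) and Atf6 in microglia-like nuclei.

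The cytosolic chaperones with the most UMIs were higher after injury in both genotypes in astrocyte-like, oligodendrocyte-like and both neuron-like classes. Hsp90aa1, the stress-inducible HSP90, stood at 480.3, 474, 626 and 614 CPM in oligodendrocyte-like nuclei. Both injured libraries lay above both naive libraries, with log2 ratios of SNI to naive of 0.38 (0.29 to 0.47) in the wild type and 0.37 (0.30 to 0.45) in the knockout. In this class, leaving out nuclei under 1000 UMIs and thinning the rest to 1000 moved them to 0.62 (0.44 to 0.81) and 0.10 (-0.06 to 0.27), and leaving out nuclei under 1000 UMIs or 500 genes, without thinning, to 0.58 (0.42 to 0.74) and 0.04 (-0.11 to 0.19). Thinning leaves out 2630 to 3730 oligodendrocyte-like nuclei per library and keeps 921 to 2565. In excitatory neuron-like nuclei Hsp90aa1 stood at 261, 274, 328 and 336, again with both injured libraries above both naive ones, at log2 ratios of 0.33 (0.24 to 0.42) and 0.30 (0.22 to 0.37). Astrocyte-like nuclei held 385, 413, 499 and 512 CPM of Hsp90aa1, and inhibitory neuron-like nuclei 235, 242, 301 and 312. Both classes showed the same order, the injured libraries above the naive ones.

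Hsp90ab1, the constitutive HSP90, stood at 481, 416, 621 and 558 CPM in oligodendrocyte-like nuclei. Here the injured libraries were again the higher ones, and in each condition the knockout was the lower genotype, with log2 ratios of knockout to wild type of -0.21 (-0.30 to -0.12) in naive and -0.15 (-0.24 to -0.07) in injured libraries. Excitatory neuron-like nuclei showed the same order of libraries at 259.7, 234, 343 and 309, and inhibitory neuron-like nuclei at 254, 219.8, 316 and 265. In astrocyte-like nuclei the intervals of both genotype ratios reached 0, at levels of 380.4, 392, 516 and 513, while the injured libraries stood above the naive ones. Hspa8, the constitutive cytosolic HSP70, stood at 418, 416, 505 and 489 in oligodendrocyte-like nuclei, with injury log2 ratios of 0.27 (0.18 to 0.37) in the wild type and 0.23 (0.15 to 0.32) in the knockout. In inhibitory neuron-like nuclei Hspa8 stood at 188, 195, 260.3 and 239. Its injured libraries were the higher ones in these classes, but in oligodendrocyte-like nuclei the ratio of the knockout was 0.01 (-0.18 to 0.20) when nuclei were thinned to 1000 UMIs and -0.01 (-0.17 to 0.16) when only the deeper nuclei were kept.

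**Figure D2:**
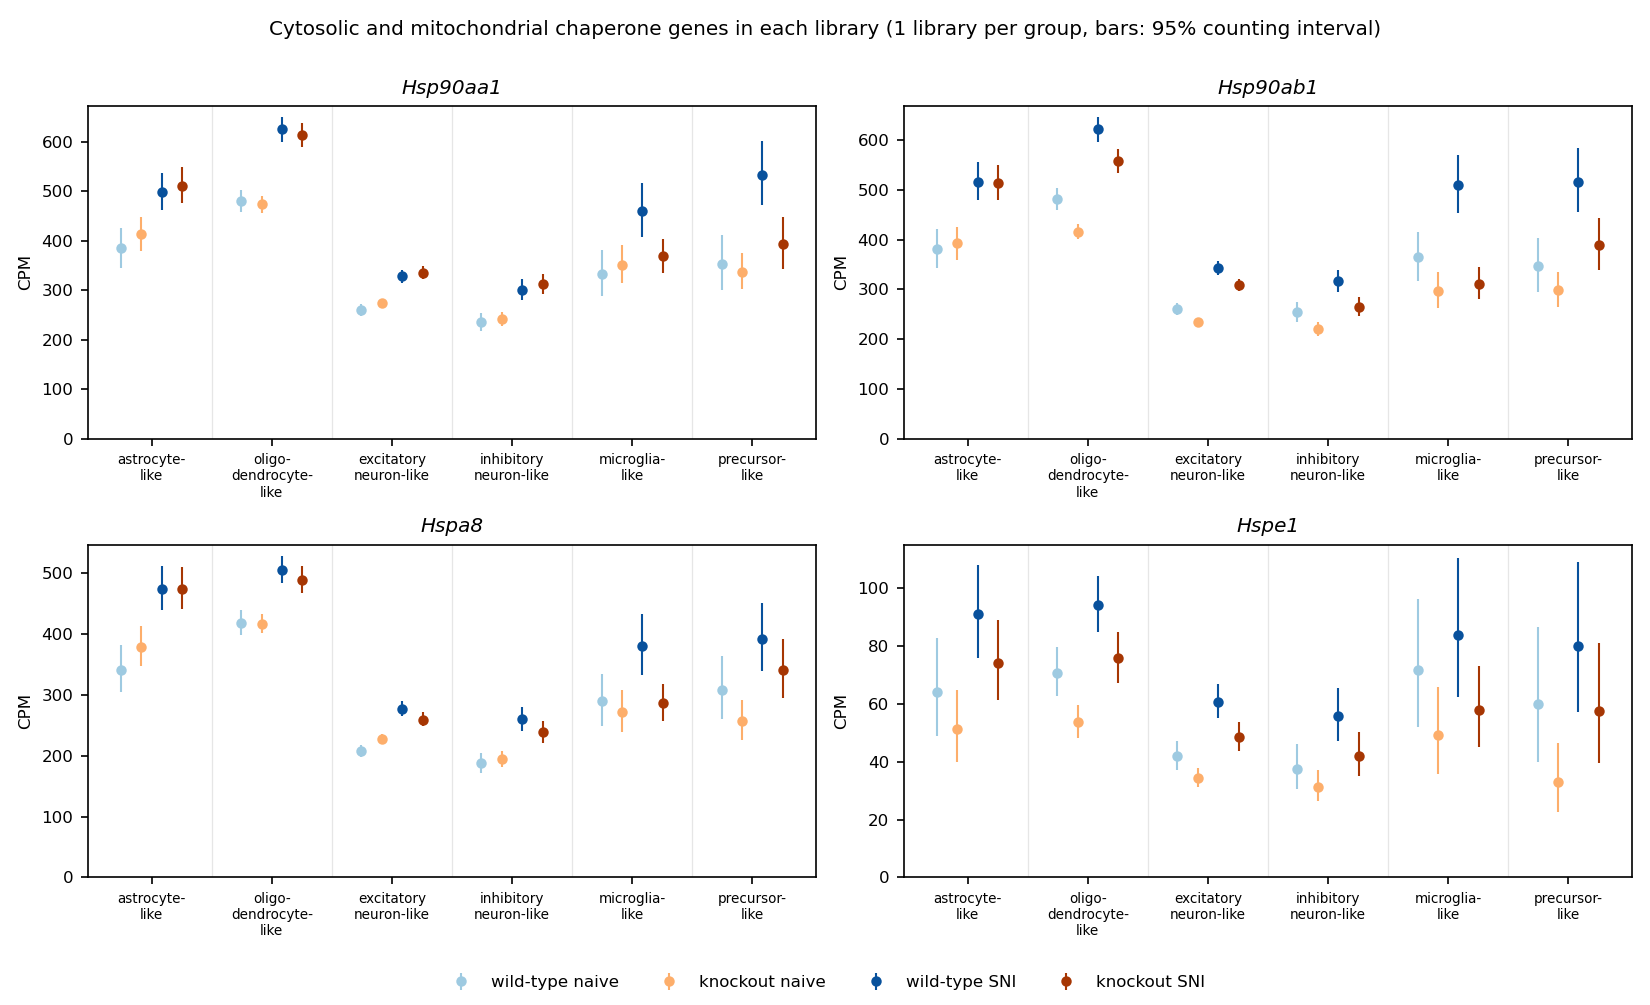
Levels of cytosolic and mitochondrial chaperones in each class and library. The vertical axis gives CPM, each point is 1 library with its 95% Poisson interval, and the horizontal axis gives the class. Hsp90aa1 and Hsp90ab1 lie higher in the 2 injured libraries than in the naive libraries of the same genotype, and Hspe1 lies lower in the knockout than in the wild type of the same condition.

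Hsph1 and Dnajb1 followed a different order, in which the wild-type naive library was the low one. Hsph1, a nucleotide exchange factor for HSP70, stood at 46.2, 73.0, 73.8 and 87.8 CPM in oligodendrocyte-like nuclei, and the 3 other libraries all lay above the wild-type naive one. The log2 ratios were 0.66 (0.41 to 0.92) for knockout to wild type in naive libraries and 0.68 (0.40 to 0.95) for SNI to naive in the wild type. Excitatory neuron-like nuclei held 32.1, 47.7, 53.4 and 59.4 CPM of Hsph1, in the same order. Dnajb1, the stress-inducible HSP40 partner of HSP70, was sparse, at 6, 10.5, 12.3 and 17.1 in oligodendrocyte-like nuclei (23, 66, 48 and 66 UMIs) and 3.24, 6.17, 6.05 and 5.81 in excitatory neuron-like nuclei. Again the wild-type naive library was the low one in both classes, with an injury ratio of 1.04 (0.30 to 1.83) in the wild type of oligodendrocyte-like nuclei. The summed level of 10 immediate early genes, which cells switch on within minutes of stimulation or handling, was lowest in the same library, at 51.4, 86.3, 83.5 and 101 CPM in oligodendrocyte-like and 50.1, 61.0, 66.1 and 63.7 in excitatory neuron-like nuclei. In oligodendrocyte-like nuclei 9 of the 10 were higher in the knockout naive, 8 in the wild-type SNI and 7 in the knockout SNI library than in the wild-type naive one, and 0 were at 0. Not every class showed this: the same counts were 7, 4 and 5 in inhibitory neuron-like nuclei and 9, 4 and 3 in microglia-like nuclei. The part of the immediate early genes in the levels of Hsph1 and Dnajb1 was not tested.

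Bag3, which links HSP70 to selective autophagy, was highest in the knockout SNI library of oligodendrocyte-like, excitatory neuron-like and astrocyte-like nuclei. Its levels were 8.87, 8.31, 12.6 and 17.4 CPM in the oligodendrocyte-like class, with an injury log2 ratio of 1.06 (0.52 to 1.61) in the knockout. In excitatory neuron-like nuclei it stood at 1.62, 1.68, 3.1 and 4.42, from 11, 21, 21 and 35 UMIs, with a ratio of 1.39 (0.57 to 2.25) in the knockout. Astrocyte-like nuclei held 17.4, 11.7, 14.2 and 20.9 CPM of Bag3, and its 16, 16, 20 and 33 UMIs were too few for an injury ratio of the knockout.

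Other members of the HSP70 and HSP110 families differed in single libraries. Hspa4l, an HSP110 relative, stood at 77.4, 129, 104 and 107 CPM in oligodendrocyte-like nuclei, with the knockout naive library highest and a log2 ratio of 0.73 (0.54 to 0.93) to the wild type. In microglia-like nuclei it stood at 68.5, 129, 109 and 102, with the wild-type naive library lowest. Hspa4, its close relative, stood at 64.1, 71.0, 105 and 67.8 in astrocyte-like nuclei, where the wild-type SNI library was the high one and the knockout SNI library lay below it by a log2 ratio of -0.63 (-1.01 to -0.26). Hspa12a, a distant HSP70 relative, was low in the wild-type SNI library of astrocyte-like nuclei, at 31.5, 38.1, 19.2 and 36.8, with a knockout to wild type log2 ratio of 0.94 (0.26 to 1.65) after injury. Dnajb6, an HSP40 that holds aggregating proteins in solution, stood at 147, 151, 164 and 157 in oligodendrocyte-like nuclei, with both injury intervals reaching 0. The HSP40 Dnaja1 stood at 119, 115, 153 and 144 in the same class, with both injured libraries above both naive ones, at injury ratios of 0.37 (0.19 to 0.55) and 0.32 (0.16 to 0.48). Dnaja2 stood there at 77.7, 78.1, 86.6 and 91.4, in the same order, and Dnajb4 at 40.9, 54.3, 46.5 and 48.7, with the knockout naive library highest. Hspa2, an HSP70 best known from the testis, held 13 to 18 UMIs per library and with Hspa1a and Hspa1b was 1 of the 3 members under the UMI minimum in oligodendrocyte-like nuclei.

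The classical heat-inducible HSP70 genes Hspa1a and Hspa1b were near the limit of detection in every class and library. They totalled 86 and 52 UMIs over all named classes, and no named class of any library held more than 13 UMIs of either. These genes are near-identical neighbours on chromosome 17, so how their reads were split is uncertain. Of astrocyte-like nuclei thinned to 1000 UMIs, 0 of 377 wild-type naive, 0 of 801 knockout naive and 0 of 371 knockout SNI nuclei held a UMI of either gene, and 4 of 731 wild-type SNI nuclei did (0.547%, interval 0.149 to 1.4). By the limit of 3 counts, a count of 0 allows shares of nuclei with a UMI of up to 0.796%, 0.375% and 0.809%. Before thinning, 0, 0, 5 and 5 astrocyte-like nuclei held one, so the few detections in this class came from injured libraries. Oligodendrocyte-like nuclei did not show this: 11, 14, 8 and 9 of them held one before thinning, in naive and injured libraries alike. In excitatory neuron-like nuclei 0.195%, 0.181%, 0.115% and 0.169% of thinned nuclei held one, with intervals that overlap across all 4 libraries.

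The 3 mitochondrial chaperones were higher after injury in the wild type in astrocyte-like, oligodendrocyte-like and both neuron-like classes, and 1 of them, Hspe1, was lower in the knockout in both conditions. Hspe1, the lid of the matrix chaperonin, stood at 70.7, 53.7, 94.1 and 75.6 CPM in oligodendrocyte-like nuclei, at 41.9, 34.4, 60.7 and 48.4 in excitatory neuron-like nuclei and at 64.1, 51.3, 91.0 and 74.2 in astrocyte-like nuclei. In each of these classes the wild-type SNI library was highest and the knockout naive library lowest. In oligodendrocyte-like nuclei its log2 ratios of knockout to wild type were -0.40 (-0.63 to -0.16) naive and -0.31 (-0.54 to -0.09) after injury, and those of SNI to naive 0.41 (0.18 to 0.64) in the wild type and 0.49 (0.26 to 0.73) in the knockout. Hspd1, the chaperonin barrel that pairs with it, stood at 55.3, 57.7, 72.0 and 64.2 in oligodendrocyte-like nuclei, with an injury ratio of 0.38 (0.12 to 0.64) in the wild type and 0.16 (-0.08 to 0.39) in the knockout. Hspa9, the HSP70 that pulls proteins into the matrix, stood at 42.4, 71.0, 75.3 and 69.7 in astrocyte-like nuclei, with the wild-type naive library alone low.

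Hspa5 and Herpud1 had their lowest level in wild-type naive nuclei of the astrocyte-like, oligodendrocyte-like, microglia-like and both neuron-like classes. They were higher after injury in the wild type there, and in oligodendrocyte-like nuclei they were lower after injury in the knockout. Hspa5, the ER HSP70, stood at 129, 177, 208 and 154 CPM in oligodendrocyte-like nuclei. The log2 ratios were 0.45 (0.30 to 0.61) for knockout to wild type in naive libraries, -0.43 (-0.59 to -0.28) for the same contrast after injury, 0.69 (0.52 to 0.85) for SNI to naive in the wild type and -0.20 (-0.34 to -0.05) in the knockout. Within the oligodendrocyte-like cluster that every library fills, the ratio of the wild type was 0.63 (0.36 to 0.91) and that of the knockout 0.06 (-0.24 to 0.36), so its sign in the knockout turned. Excitatory neuron-like nuclei held 97.1, 117, 156 and 127, with injury ratios of 0.68 (0.54 to 0.82) in the wild type and 0.12 (0.01 to 0.24) in the knockout. Inhibitory neuron-like nuclei held 94.6, 112, 128 and 120.0. The wild-type SNI library was the highest and the wild-type naive library the lowest in all 3 classes. Made equal in depth, 9.91%, 13.3%, 16.3% and 11.5% of the 1029, 2565, 1382 and 921 oligodendrocyte-like nuclei with at least 1000 UMIs held an Hspa5 UMI, against 10.3%, 16.4%, 18.1% and 11.7% of all nuclei of the class before thinning, in the same order of libraries.

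Herpud1, which organises the complex that moves misfolded proteins out of the ER for degradation, stood at 42.0, 75.4, 74.8 and 55.4 CPM in oligodendrocyte-like nuclei, with the wild-type naive library low. Its log2 ratios were 0.85 (0.58 to 1.11) for knockout to wild type naive and -0.43 (-0.69 to -0.17) after injury, 0.83 (0.55 to 1.12) for injury in the wild type and -0.44 (-0.68 to -0.21) in the knockout. Inhibitory neuron-like nuclei held 22.2, 40.9, 40.4 and 36.2, and excitatory neuron-like nuclei 30.1, 43.9, 38.5 and 39.5. The wild-type naive library was the lowest in each of these classes. In oligodendrocyte precursor-like nuclei Herpud1 stood at 23.5, 50.5, 88.0 and 38.4, from 11, 49, 44 and 22 UMIs, with an injury ratio of 1.90 (0.93 to 3.00) in the wild type and -0.40 (-1.19 to 0.36) in the knockout.

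**Figure D3:**
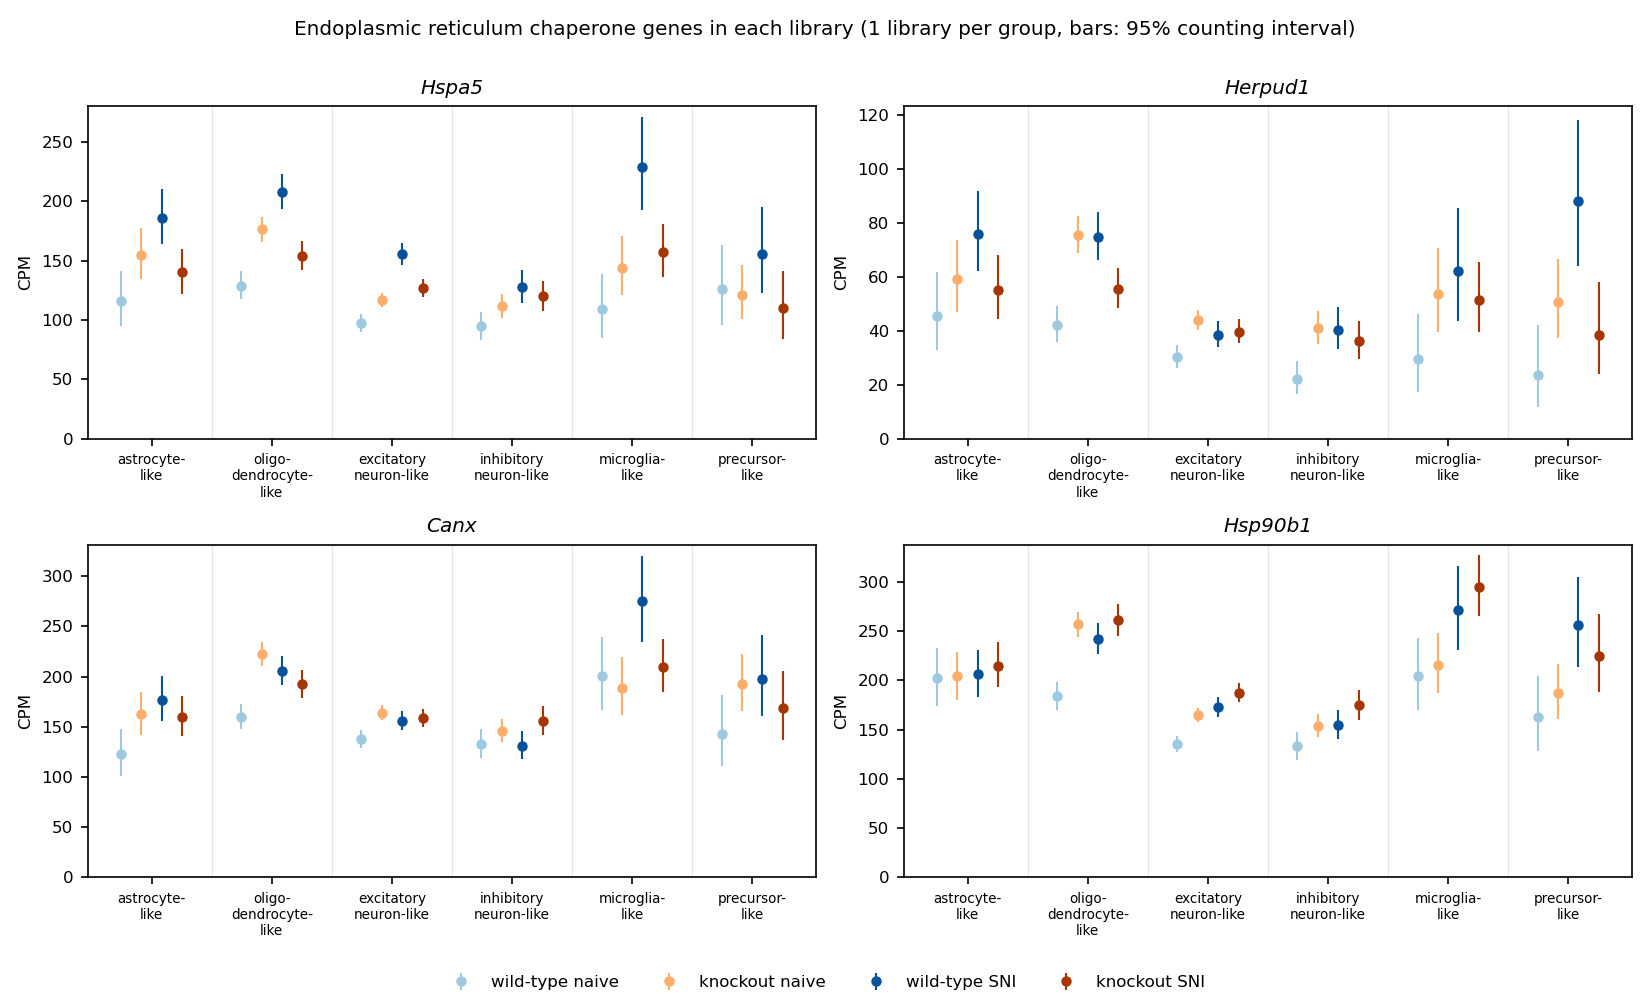
Levels of ER chaperones in each class and library. The vertical axis gives CPM, each point is 1 library with its 95% Poisson interval, and the horizontal axis gives the class. For Hspa5 in oligodendrocyte-like nuclei the wild-type naive library (129) is lowest and the wild-type SNI library (208) highest, and the knockout SNI library (154) lies below the knockout naive library (177).

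The lectin chaperones, which hold glycoproteins until they fold, and the other folding enzymes of the ER followed Hspa5 in part. Canx stood at 160.1, 222, 206 and 193 CPM in oligodendrocyte-like nuclei and at 138, 164, 156 and 159 in excitatory neuron-like nuclei, with the wild-type naive library below the 3 others. Calr, its soluble partner, stood at 106, 131, 152 and 144 in oligodendrocyte-like nuclei and at 76.8, 92.1, 107 and 113 in excitatory neuron-like nuclei. The injured libraries of Calr were above both naive libraries in these classes, in the knockout too, where its excitatory neuron-like ratio was 0.30 (0.17 to 0.42). Pdia3, the disulfide isomerase that works with both lectins, stood at 102, 145, 139.6 and 132 in oligodendrocyte-like nuclei, with the wild-type naive library alone low. Pdia6, another disulfide isomerase, stood at 61.8, 62.0, 82.2 and 74.9 there, with both injured libraries above both naive ones, and Pdia4 at 25.3, 28.4, 27.8 and 36.0, with the knockout SNI library highest. The ER HSP40 proteins Dnajb11 and Dnajc3 stood at 38.3, 39.9, 47.5 and 35.2 and at 54.5, 55.9, 67.6 and 60.9, both highest in the wild-type SNI library.

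Hsp90b1, the ER HSP90, stood at 184, 257, 242 and 261 CPM in oligodendrocyte-like nuclei and at 135, 165, 173 and 187 in excitatory neuron-like nuclei. In astrocyte-like nuclei its 4 libraries stood close together, at 202, 204, 206 and 215. Dnajb9, an ER HSP40 that returns Hspa5 to the sensor Ire1, stood at 28.2, 38.3, 42.4 and 30.8 in oligodendrocyte-like nuclei, in the order of Hspa5. Sdf2l1, a partner of ER HSP40 proteins, was sparse, at 11.2, 9.11, 15.9 and 13.0 in oligodendrocyte-like and 5.74, 5.29, 10.3 and 6.44 in excitatory neuron-like nuclei. It was higher in the injured library of each genotype in these classes, with an excitatory neuron-like ratio of 0.85 (0.26 to 1.45) in the wild type and 0.29 (-0.27 to 0.83) in the knockout. In inhibitory neuron-like nuclei it stood at 6.73, 4.54, 10.4 and 10.6, with a ratio of 1.22 (0.37 to 2.11) in the knockout. Hspa13, an HSP70-like ER protein, stood at 24.8, 31.0, 27.0 and 22.0 in oligodendrocyte-like nuclei, with the knockout SNI library lowest and an injury ratio of -0.49 (-0.88 to -0.12) in the knockout. Hyou1, an HSP110 relative that releases nucleotide from Hspa5, stood at 14.1, 24.2, 21.3 and 13.9 in astrocyte-like nuclei, with an injury ratio of -0.79 (-1.64 to 0.03) in the knockout whose interval reaches 0.

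Among the regulators, Atf4 and Xbp1 differed between libraries in astrocyte-like nuclei. Hsf1 differed little in oligodendrocyte-like and excitatory neuron-like nuclei. Atf4, the effector of the integrated stress response, stood in astrocyte-like nuclei at 16.3, 43.9, 30.6 and 27.3 CPM, based on 15, 60, 43 and 43 counted molecules. The knockout naive library was the high one and the wild-type naive library the low one, with log2 ratios of 1.43 (0.60 to 2.35) for knockout to wild type naive, 0.91 (0.03 to 1.86) for injury in the wild type and -0.69 (-1.29 to -0.10) for injury in the knockout. With each library clustered alone the ratio of the knockout was -0.20 (-0.77 to 0.35). In inhibitory neuron-like nuclei Atf4 stood at 12.7, 19.8, 18.5 and 13.3, with the same lowest and highest library. Within the oligodendrocyte-like cluster that every library fills, Atf4 was lower after injury in the wild type (-0.78) and in the knockout (-0.70), from 42, 47, 24 and 37 UMIs. Xbp1, the factor spliced by Ire1, stood at 21.7, 25.6, 40.5 and 45.0 in astrocyte-like nuclei, where the injured libraries of both genotypes were higher, at 0.90 (0.14 to 1.71) and 0.81 (0.21 to 1.44). Its splicing cannot be read from gene counts.

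Hsf1 stood at 19.0, 19.8, 19.3 and 20.5 CPM in oligodendrocyte-like nuclei and at 22.6, 23.1, 25.7 and 21.1 in excitatory neuron-like nuclei, with all intervals of its ratios reaching 0 in both. Atf6 stood at 79.5, 80.2, 62.2 and 67.1 in oligodendrocyte-like nuclei, with both injured libraries lower, at -0.35 (-0.60 to -0.11) and -0.26 (-0.48 to -0.04). Ddit3, a pro-apoptotic factor of prolonged ER stress, was sparse, at 5.15, 6.65, 8.41 and 6.32 in excitatory neuron-like nuclei, from 35, 83, 57 and 50 UMIs. Its injury ratio was 0.71 (0.08 to 1.36) in the wild type and -0.07 (-0.61 to 0.45) in the knockout.

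In microglia-like and oligodendrocyte precursor-like nuclei, the smallest of the 6 classes, the wild-type SNI library was the high one for many members. Hsp90ab1 stood at 364, 297, 509 and 311 CPM in microglia-like nuclei, with a log2 ratio of -0.71 (-0.93 to -0.49) for knockout to wild type after injury. Hspd1 stood there at 37.5, 43.7, 95.5 and 48.8, from 23, 40, 57 and 60 UMIs, with an injury ratio of 1.35 (0.63 to 2.11) in the wild type, and Hspa5 at 109, 144, 229 and 157, with injury ratios of 1.07 (0.64 to 1.51) in the wild type and 0.12 (-0.20 to 0.46) in the knockout. For each of these genes the 3 other libraries lay below the wild-type SNI library. The share of microglia-like nuclei with an Hspa5 UMI did not follow this order at equal depth: it was 13.8%, 12.8%, 13.5% and 12.6% of the 189, 265, 170 and 397 nuclei with at least 1000 UMIs after thinning, against 12.2%, 19.0%, 25.5% and 19.7% of all nuclei of the class before it. Over members with enough UMIs in microglia-like nuclei, 24 of 25 were higher after injury in the wild type (median 0.44), and 2 of 30 were higher in the knockout than in the wild type after injury (median -0.40). The medians for the same contrasts in oligodendrocyte precursor-like nuclei were 0.49 and -0.33. Directions and medians of all genes are not set beside these values, so they are not read as a result about the members.

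The microglia-like values depend on which cluster is counted. Microglia-like nuclei numbered 483, 595, 463 and 869 and held neuron markers at 8181, 11522, 8733 and 9822 CPM. A further cluster of 201, 253, 325 and 445 nuclei carried 7 of 7 microglia markers together with oligodendrocyte markers and stayed unnamed. In it Hsp90aa1 stood at 217, 199.9, 174 and 293 CPM, with the wild-type SNI library lowest and injury log2 ratios of -0.32 in the wild type and 0.55 in the knockout, against 0.47 and 0.07 in microglia-like nuclei. Another scaling of library size gave a shift of -0.11 on the log2 scale for both genotype contrasts of microglia-like nuclei. This shift is subtracted, so under that scaling the ratios of knockout to wild type were higher by that amount for all genes.

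Counted over members, the share past 1.5-fold for injury in the wild type stood above the background of all genes in every named class except inhibitory neuron-like nuclei. Passing the fold in this contrast is not particular to chaperones. Among the abundant cytoplasmic transcripts, Tmsb4x stood at 387 CPM in wild-type naive and 857 in wild-type SNI astrocyte-like nuclei. In oligodendrocyte-like nuclei it stood at 484 and 989. Others did not pass the fold, such as Ckb at 501 and 581 in astrocyte-like nuclei. In astrocyte-like nuclei 12 of 30 members were past the fold for SNI to naive in the wild type, 11 of them higher, against 12.1% of all genes. The other counts in astrocyte-like nuclei were 3 of 29 for knockout to wild type naive, against 26.2%, 3 of 33 for the same contrast after injury, against 8.82%, and 3 of 32 for injury in the knockout, against 18.1%. Those higher in the wild type after injury were Hspa4, Hsph1, Hspa9, Hspa5, Hspa13, Dnajb11, Calr, Pdia6, Herpud1, Atf4 and Xbp1, and the lower one was Hspa12a.

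Oligodendrocyte-like nuclei had 5 of 36 members past the fold for injury in the wild type, all higher, against 9.21% of all genes. There 4 of 36 were past it for knockout to wild type naive, against 26.2%, 0 of 36 for that contrast after injury, against 6.87%, and 2 of 36 for injury in the knockout, against 19.7%. Small differences in 1 direction were more common than folds past the limit: 35 of 36 members were higher after injury in the wild type (median log2 ratio 0.38), against 57.2% of all genes (median 0.06), and 23 of 36 in the knockout (median 0.10), against 46.8% of all genes (median -0.03). The median of the knockout turned to -0.07 when nuclei were thinned to 1000 UMIs. In excitatory neuron-like nuclei 6 of 35 members were past the fold for injury in the wild type, against 6.13% of all genes, and 1 of 36 for injury in the knockout, against 12.4%. Their genotype contrasts held 1 of 35 naive, against 17.8%, and 1 of 36 after injury, against 4.80%.

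Inhibitory neuron-like nuclei had 3 of 32 members past the fold for knockout to wild type naive, against 16.7% of all genes, 0 of 33 for that contrast after injury, against 5.44%, 1 of 32 for injury in the wild type, against 6.74%, and 1 of 33 for injury in the knockout, against 12%. Microglia-like nuclei had 4 of 25 for knockout to wild type naive, against 28.4%, 4 of 30 after injury, all lower in the knockout, against 17.3%, 9 of 25 for injury in the wild type, all higher, against 15.4%, and 2 of 30 for injury in the knockout, against 14.4%. In oligodendrocyte precursor-like nuclei, at 396 to 624 nuclei per library, 3 of 23 members were past the fold for knockout to wild type naive, against 21.6%, 5 of 22 after injury, all lower in the knockout, against 10.8%, 7 of 21 for injury in the wild type, all higher, against 11.5%, and 4 of 25 for injury in the knockout, against 15.2%. The members that passed the UMI minimum differ between classes, and 3 to 18 members per contrast did not reach it.

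**Figure D4:**
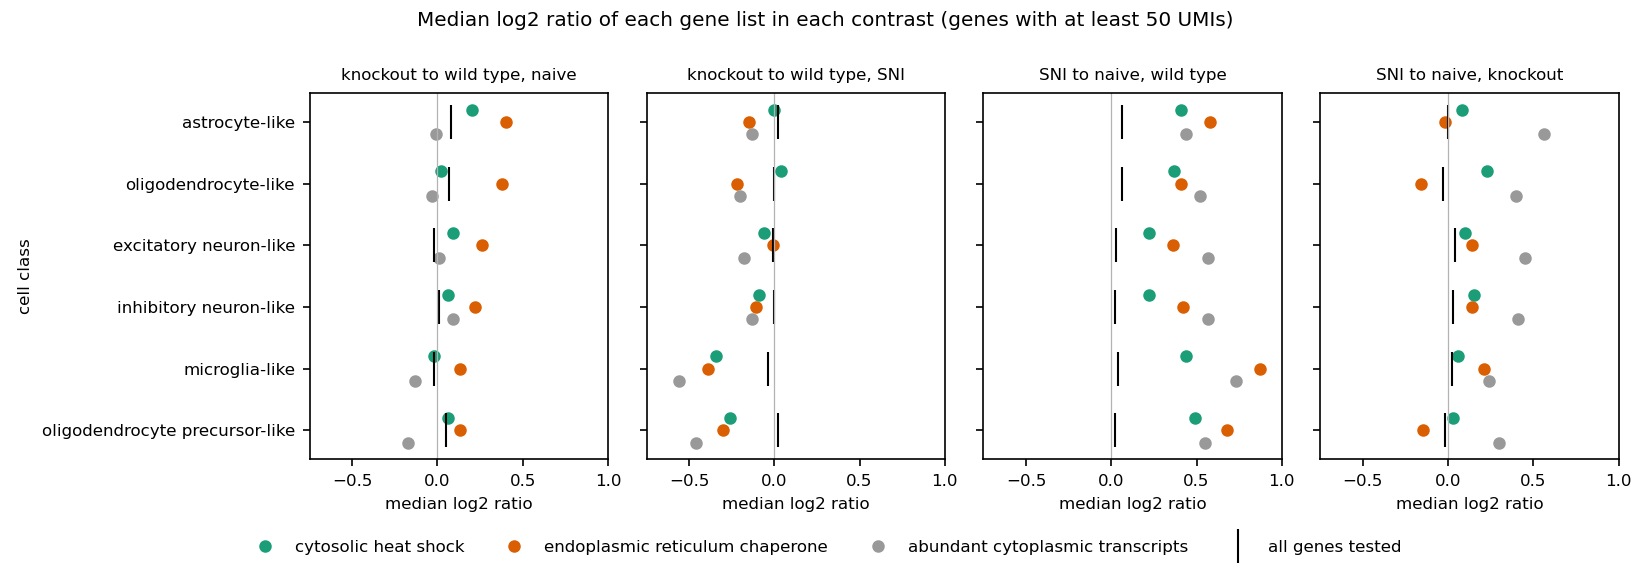
Median log2 ratio of the cytosolic genes, the ER chaperones and the abundant cytoplasmic transcripts in each of the 4 contrasts, with 1 row for each class and a black bar for all genes tested. Points at the right of 0 are higher in the first library of the contrast. The ER genes lie at 0.58 in astrocyte-like and 0.41 in oligodendrocyte-like nuclei for injury in the wild type, and at -0.02 and -0.16 for injury in the knockout. Within the oligodendrocyte-like cluster shared by the libraries, which is not drawn, single ER genes lay on both sides of 0 for injury in the knockout.

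The ER chaperones and the cytosolic genes both had higher group medians for injury in the wild type than in the knockout in 4 classes. The abundant cytoplasmic transcripts showed the same order over all named classes. For injury in the wild type the median log2 ratio of the ER chaperones was 0.58 in astrocyte-like, 0.41 in oligodendrocyte-like, 0.36 in excitatory and 0.42 in inhibitory neuron-like nuclei. For injury in the knockout these medians were -0.02, -0.16, 0.14 and 0.14. The cytosolic genes had medians of 0.41, 0.37, 0.22 and 0.22 in the wild type and 0.08, 0.23, 0.10 and 0.15 in the knockout in the same classes. Most oligodendrocyte-like nuclei of the knockout naive library lay in a cluster with few nuclei of the other libraries. Within the oligodendrocyte-like cluster that every library fills, ER genes lay on both sides of 0 for injury in the knockout. For example, Calr stood at 0.30, Pdia6 at 0.60, Pdia4 at 0.44 and Hspa5 at 0.06. Herpud1 stood at -0.80, Pdia3 at -0.17 and Canx at -0.11. The group median within that cluster is not given here. The injury contrasts of the 2 genotypes share no library, but each shares its libraries with the genotype contrasts.

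Single members also differed in the sign of their injury ratio between genotypes. In oligodendrocyte-like nuclei Hspa5, Herpud1, Canx and Hspa4l were higher after injury in the wild type and lower after injury in the knockout, with intervals that leave out 0 in both, and Atf4 did the same in astrocyte-like nuclei. The share of all genes with such opposite signs was not counted. With 1 library per group, the difference between genotypes was not tested, and it cannot be told apart from differences between libraries such as the shared unnamed cluster, the neuron markers and the cytoplasmic transcripts described above, whose part was not tested. Within the oligodendrocyte-like cluster held by 868 to 1542 nuclei of every library, Herpud1 stood at 33.9, 86.4, 72.9 and 49.7 CPM, with injury ratios of 1.11 (0.63 to 1.60) in the wild type and -0.80 (-1.22 to -0.38) in the knockout. The 3 other genes were higher after injury in the wild type there too, but their knockout intervals reached 0: Canx stood at 126, 177, 174 and 165, with a ratio of -0.11 (-0.36 to 0.15) in the knockout, and Hspa4l at 67.7, 98.6, 90.5 and 92.9, with -0.09 (-0.43 to 0.26). Hspa5 stood at 110.2, 127, 171 and 132 in that cluster, and its knockout libraries lay close together.

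**Figure D5:**
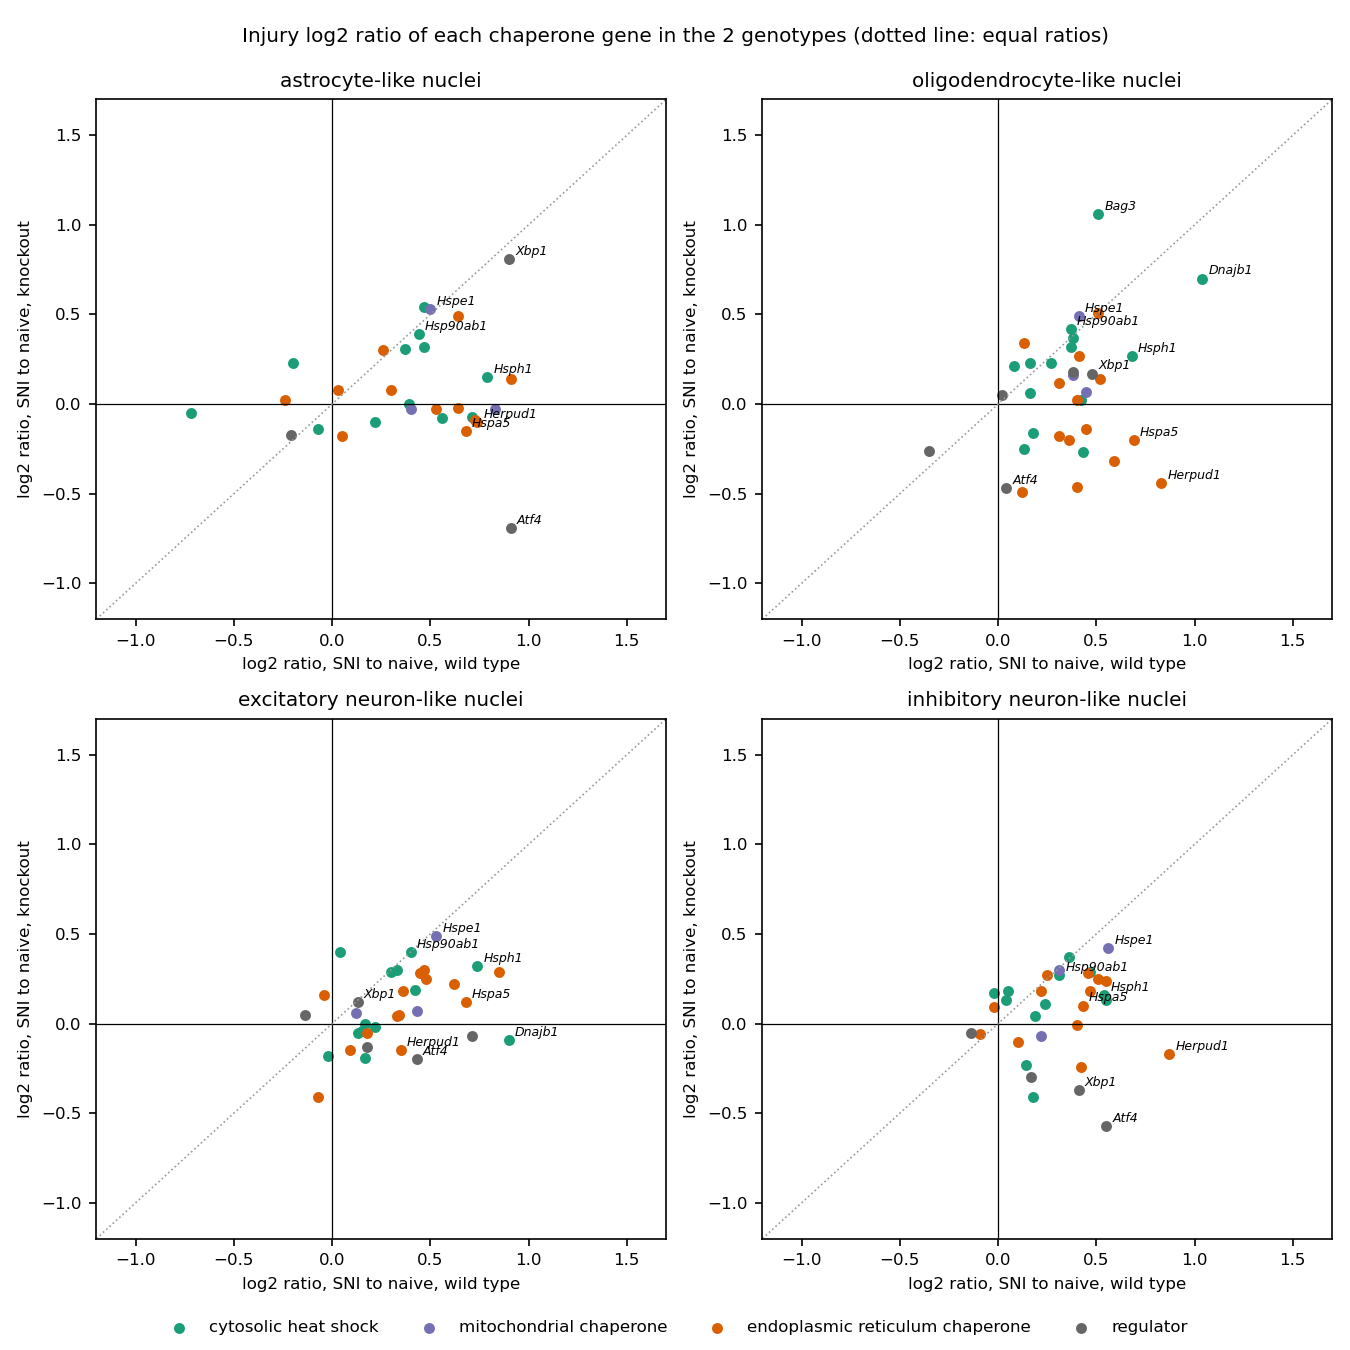
Injury log2 ratio of each member in the wild type (horizontal axis) and the knockout (vertical axis), 1 panel per class, coloured by gene group, with a dotted line of equal ratios. In oligodendrocyte-like nuclei Hspa5 (0.69 and -0.20) and Herpud1 (0.83 and -0.44) lie below the line, at the lower right, whereas Hsp90ab1 (0.37 and 0.42) lies near it.

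Differences in Hspa5 and in the HSP90 genes were spread over many clusters. Of 32 clusters with at least 50 nuclei in every library, named or not, Hspa5 was higher after SNI in the wild type in 32 and in the knockout in 21, and Herpud1 in 27 and in 5. Hsp90ab1 was higher after SNI in 32 of 32 clusters in the wild type and in 31 of 32 in the knockout, and Hspe1 in 27 and 30. The abundant cytoplasmic transcripts, which are no chaperones, were higher in 32 and 31 of the same clusters. Clusters of a library share that library, so these counts describe how widely a difference between libraries was spread and are not replicates.

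Other genes of the same pathways were summed over all named classes. Of other cytosolic chaperones and cochaperones with enough UMIs over all named classes, 24 of 28 were higher after injury in the wild type (median log2 ratio 0.25) and 27 of 29 in the knockout (0.20). Of other genes of the unfolded protein response, 26 of 30 were higher after injury in the wild type (0.10) and 13 of 32 in the knockout (-0.08), and 22 of 30 were higher in the knockout than in the wild type naive (0.09). None of 8 other mitochondrial chaperones and proteases was higher in the knockout naive library than in the wild-type naive one (median -0.20), and 4 and 6 of 8 were higher after injury in the wild type and the knockout. All-gene medians for these 4 contrasts lay between -0.06 and 0.07, and the medians of the unfolded protein response genes, 0.10, -0.08 and 0.09, lay close to that range. The share of all genes higher in each contrast is not set beside these counts, so they are not read as a result about the pathways. Grpel1, the cofactor of Hspa9, stood at 11.1, 6.21, 12.3 and 11 CPM over all named classes, with the knockout naive library alone low.

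The small heat shock proteins Hspb1 and Hspb8, which bind unfolding proteins without ATP, and Atf3, a stress-induced transcription factor, had the highest ratios of knockout to wild type after injury among the other pathway genes. Hspb1, known from injured sensory neurons, held 39, 58, 107 and 403 UMIs over all named classes, or 2.57, 2.20, 6.74 and 22.3 CPM. Atf3 held 3, 4, 25 and 221 UMIs, or 0.198, 0.151, 1.58 and 12.2 CPM, and Hspb8 held 8, 19, 24 and 74 UMIs. All 3 were highest in the knockout SNI library. Hspb1 and Atf3 were found in every named class of that library, at 13.0 to 38.1 CPM for Hspb1 and 6.15 to 20.2 for Atf3. Over all named classes, the log2 ratios of knockout to wild type after injury were 1.72 for Hspb1, 1.44 for Hspb8 and 2.96 for Atf3. Microglia markers were also highest in astrocyte-like nuclei of that library, where 7 genes summed to 259.8, 222, 335 and 565 CPM and 7 of 7 stood above the wild-type SNI library. The part of RNA from other cells in these levels was not tested.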

How the data were processed

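Single-nucleus RNA was captured with the 10x Genomics 3′ system (v3.1), per the labels' protocols, and the deposited values are raw UMI counts for each gene and barcode, made with Cell Ranger 7.0.0, per the file headers. The submitters' processing notes name the GRCm38 build, Seurat 4.3.0 and R 4.3.0. Whether counting used strand, and how reads shared by near-identical copies (Hspa1a and Hspa1b, or processed copies of Hspa8, Hsp90ab1 and Hspe1) were treated, is not given in the sources used here.

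Kept nuclei had 300 genes or more and a mitochondrial share under 5%, and doublets (3.03 to 11.34% per library) were removed by simulation within each library. Where the automatic threshold marked under 0.5% of nuclei (the knockout SNI library), the 90th percentile of the score was used. Clusters were made with scanpy 1.11.5 from 3000 variable genes without the listed genes (40 principal components, 20 neighbours, Leiden resolution 1) and named from markers. After seeing the data, markers shared by oligodendrocytes and their committed precursors were no longer counted against the name oligodendrocyte-like. UMIs were summed per class and library. Log2 ratios carry exact conditional binomial 95% intervals, levels exact Poisson intervals and shares Clopper-Pearson intervals, all for counting error only. With 1 library per group no test was made, and the ratios are descriptions. The calculation of ratios and intervals was tested on simulated counts. Alternatives included edgeR 4.0.16 TMM scaling, centring on the median gene, thinning to 1000 UMIs (without nuclei under that number), other filters and other clusterings. Genes were named by a rule: the regulators and Hspa1a and Hspa1b, the members with the most UMIs in each group, up to 3 members per contrast and class with the largest log2 ratio past 1.5-fold, and the same for other pathway genes. The members and lists were chosen with earlier results of these data known.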

Additional observations from a re-analysis of the deposited data

Results flagged for a closer look

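In 5 cases the injury log2 ratio of a member had opposite signs in the 2 genotypes, with both intervals leaving out 0. The share of all genes that meet this rule was not counted, so the cases are not read as particular to the members. The difference between genotypes was not tested, since each group is 1 library. Atf4 in astrocyte-like nuclei had ratios of 0.91 (0.03 to 1.86) in the wild type and -0.69 (-1.29 to -0.10) in the knockout, a difference of -1.60. The other 4 lay in oligodendrocyte-like nuclei. Herpud1 had the widest difference there, -1.28, from 0.83 in the wild type and -0.44 in the knockout. Hspa5 differed by -0.89, from 0.69 and -0.20. Hspa4l differed by -0.70, from 0.43 and -0.27, and Canx by -0.57, from 0.36 and -0.20. Both signs were kept under every alternative run for them, except that Hspa5 in the knockout stood at 0.06 within the oligodendrocyte-like cluster shared by the libraries. The intervals of Atf4 reached 0 under several of these alternatives. In each case the knockout naive library stood above the wild-type naive library, by log2 ratios of 1.43 for Atf4, 0.85 for Herpud1, 0.45 for Hspa5, 0.73 for Hspa4l and 0.47 for Canx.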

How the results depend on the processing

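Of 265 alternative values for the list medians, 228 stayed within the spread set for them, 34 moved and 3 changed sign, counting a sign only where the reported interval left out 0. Injury in the knockout of astrocyte-like nuclei, at -0.01 with an interval that reached 0, was above 0 under 6 alternatives. The intervals of the list medians, on which these sign counts rest, are not printed here and how they were made is not described. The values within the shared oligodendrocyte-like cluster, from another random start of the clustering and of single members were added after seeing the data. In astrocyte-like nuclei the median moved to 0.15 (each library clustered alone) for knockout to wild type naive, to -0.16 (thinned) and -0.16 (deeper nuclei) for that contrast after injury, and to 0.11 (thinned), 0.10 (Leiden resolution 0.5) and 0.24 (each library clustered alone) for injury in the knockout, and the difference between genotypes was -0.38 (deeper nuclei). In oligodendrocyte-like nuclei it moved to 0.06 (minimum of 20 UMIs), 0.06 (no minimum), 0.05 (centred), 0.41 (thinned), 0.37 (deeper nuclei), 0.27 (mitochondrial share under 1%) and 0.05 (nuclei weighted equally) for knockout to wild type naive, to 0.00 (under 1%) for that contrast after injury, and to 0.32 (TMM) and 0.50 (thinned) for injury in the wild type. Injury in the knockout changed sign there to -0.07 (thinned) and -0.08 (deeper nuclei), and the difference was -0.24 (centred), -0.52 (thinned), -0.42 (deeper nuclei), -0.24 (weighted equally) and -0.13 (shared cluster). In excitatory neuron-like nuclei the values were 0.24 (TMM) and 0.20 (under 1%) for knockout to wild type naive, -0.10 (thinned) after injury, and 0.02 (centred), -0.02 (TMM, changed sign), 0.00 (thinned), 0.01 (deeper nuclei) and 0.11 (each library clustered alone) for injury in the knockout, with differences of -0.29 (TMM) and -0.31 (thinned). In inhibitory neuron-like nuclei knockout to wild type naive moved to 0.04 (each library clustered alone) and injury in the knockout to 0.05 (TMM) and 0.05 (thinned). The cause of these moves was not tested. Of 544 alternative values for single members, 494 stayed, 48 moved and, counted in the same way, 2 changed sign, both for injury in the knockout of oligodendrocyte-like nuclei: Hspa5 was 0.06 in the shared cluster, against -0.20, and Hspa8 -0.01 in deeper nuclei, against 0.23. Where the reported interval reached 0, the Hspa5 ratio of the knockout crossed it in astrocyte-like nuclei, from -0.15 to 0.02 (Leiden resolution 0.5) and 0.11 (each library clustered alone), and in inhibitory neuron-like nuclei, from 0.10 to -0.02 (thinned). No paired analysis was possible because each group has 1 library. Depth limits Hspa1a, Hspa1b, Ddit3 and Sdf2l1, whose counts per class were small.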
